A study of Homo sapiens with 2 samples.

Results

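The liver cancer stem cell and pluripotency markers are 10 genes, EPCAM, PROM1, CD44, CD24, ANPEP, SOX9, SOX4, SOX2, POU5F1 and NANOG, chosen by name from the 58174 genes in the deposited tables, by a rule that uses no measured value, although earlier results of these data were known when they were chosen. They were followed in PLC-8024, a human hepatocellular carcinoma (HCC) cell line. Cells with a control vector (PLC-8024-CTR, here the control library) were compared with cells stably transduced by lentivirus with human GDF1 and selected with puromycin (PLC-8024-GDF1, here the GDF1 library), with 1 RNA-seq library per condition. GDF1 is a secreted ligand of the TGF-β superfamily, and the study asked whether its overexpression moves HCC cells towards progenitor-like states. Whether the transduced population was a pool or a clone is not given in the sources used here. Since each condition has 1 library, no difference below has a replicate check and none was tested.

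Cancer stem cell markers are genes whose proteins are used to pick out tumour cells that can renew themselves and seed new tumours. In the liver, most of them are surface proteins that are also found on foetal or ductal progenitors, among them EPCAM, PROM1 (CD133), CD44, CD24 and ANPEP (CD13). SOX9 marks bile duct and progenitor cells and SOX4 acts in embryonic liver, while SOX2, POU5F1 (OCT4) and NANOG form the core transcription factor circuit of pluripotent stem cells. The markers are rarely all present in one tumour, and different HCC lines are defined by different ones.

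Levels are given as TPM, the transcript abundance of a gene divided by its length and scaled to the same total in each library, so genes can be compared within a library. A listed value of 0.0001 stands in place of 0. A change is the log2 of TPM + 1 in the GDF1 library divided by TPM + 1 in the control library. The added 1 makes the changes of low genes smaller, so the plain TPM ratio is given for the markers and for the other stem cell markers and partner genes that passed 2-fold. Past 2-fold means a log2 change above 1 or below -1. TPM carries no read depth, and no counting error can be given. GDF1 itself was listed at 2.1 TPM in the control library and 4.64 TPM in the GDF1 library. CERS1, which is transcribed together with GDF1 from one locus, was listed at 13.3 and 9612 TPM. To which of these entries reads of the introduced GDF1 sequence were given was not tested. By western blot, the study reported overexpressed GDF1 protein in the transduced cells. In bulk RNA, fewer cells that carry a marker and less of its RNA per cell cannot be told apart.

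Of the 10 markers, 6 had at least 1 TPM in either library, namely ANPEP, CD24, SOX4, SOX9, CD44 and PROM1. None of the 6 changed past 2-fold, 0 of 6, where 14.4% of all 14929 genes with at least 1 TPM did (4.82% rose and 9.61% fell past 2-fold). The log2 changes of the 6 ran from -0.43 for CD44 to 0.74 for PROM1, which passed 2-fold (1.09) when a trend on GC content was removed. Their median was 0.08, with 3 above 0 and 3 below (ANPEP and CD24 lay above 0 when the libraries were rescaled to each other), while the median over all 14929 genes was -0.20 and 36.7% of those genes lay above 0. The split of all genes between rises and falls depended on scaling, with 720 rises and 1434 falls as deposited, 1040 and 1022 with the libraries rescaled to each other, and 921 and 886 with the GC trend removed, both described below. The share past 2-fold was 14.3% among the 7653 least abundant of these genes, those from 1 to 10 TPM, to which PROM1, CD44, SOX4 and SOX9 belong, and 9.69% among the 1507 most abundant, to which ANPEP and CD24 belong. The other 4 markers, EPCAM, POU5F1, SOX2 and NANOG, were under 1 TPM in both libraries.

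**Figure D1:**
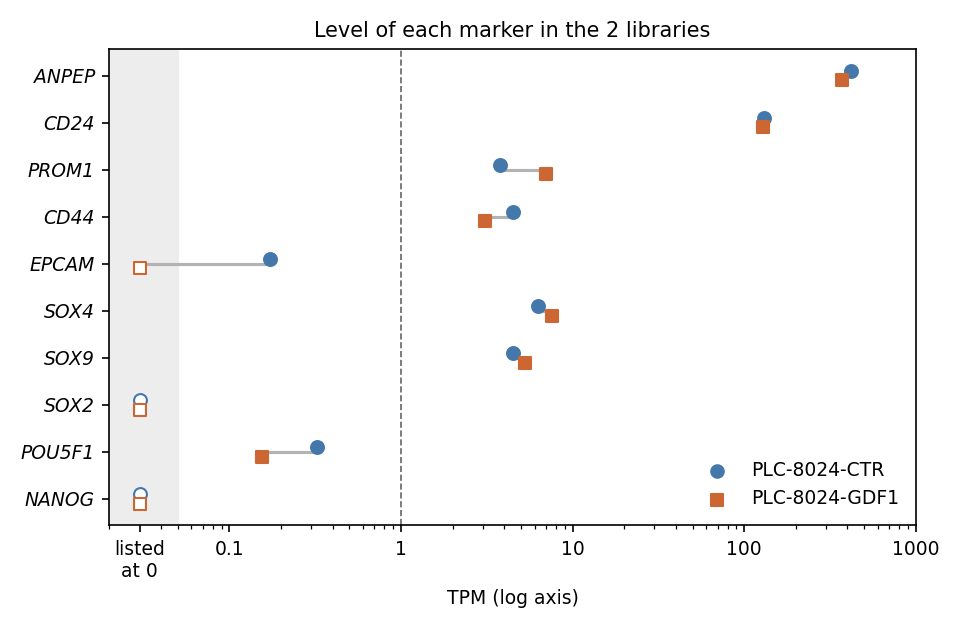
TPM (log axis) of the 10 markers in the control library (circles) and the GDF1 library (squares), 1 library each, with open symbols in the grey band for genes listed at 0 and a dashed line at 1 TPM. ANPEP and CD24 stand at 128.0 TPM or more in both libraries, 4 markers lie between 3.09 and 7.54 TPM, and EPCAM, SOX2, POU5F1 and NANOG stay left of the line.

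The promoters of 3 markers are shown for the markers with the largest difference (PROM1), the most abundant of the SOX factors among the 10 (SOX4) and a pluripotency gene listed at 0 (NANOG). RefSeq (GRCh38.p14) gave promoter windows for 7 of the 10 markers, 13 windows in all, and not for EPCAM, SOX9 and POU5F1. The 250 bases before the start site were used, and each window below matched its own chromosome in GRCh37 exactly once. Other chromosomes were not searched. These 3 windows hold no annotated exon. That of PROM1 precedes 1 of its 4 listed starts, and which start these cells use is not known from gene-level TPM. Capitals mark matches, on either strand, to CAGAC and GGCGC, which SMAD proteins can bind, and to ACAATG, a SOX motif. GTCTG is CAGAC read from the other strand.
PROM1 (chr4:16077742-16077991, minus strand): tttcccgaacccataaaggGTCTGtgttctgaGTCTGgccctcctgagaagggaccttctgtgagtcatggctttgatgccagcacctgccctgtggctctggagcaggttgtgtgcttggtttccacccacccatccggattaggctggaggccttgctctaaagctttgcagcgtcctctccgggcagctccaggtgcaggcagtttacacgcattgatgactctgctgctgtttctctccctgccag
SOX4 (chr6:21593732-21593981, plus strand): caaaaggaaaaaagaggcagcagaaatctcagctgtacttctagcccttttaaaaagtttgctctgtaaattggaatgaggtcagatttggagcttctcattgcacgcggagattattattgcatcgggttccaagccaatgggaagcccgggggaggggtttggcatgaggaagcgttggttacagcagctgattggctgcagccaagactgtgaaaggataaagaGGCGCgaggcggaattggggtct
NANOG (chr12:7941748-7941997, plus strand): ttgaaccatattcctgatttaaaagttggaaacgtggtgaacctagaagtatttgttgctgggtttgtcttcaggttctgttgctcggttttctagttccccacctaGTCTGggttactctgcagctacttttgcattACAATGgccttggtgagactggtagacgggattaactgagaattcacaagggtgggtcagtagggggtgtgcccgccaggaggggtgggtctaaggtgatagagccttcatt

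In the PROM1 window, CAGAC was found on the reverse strand at positions -231 and -218, counted from the start. The 3 other PROM1 windows each held GGCGC, which the printed one lacks, and 2 of them held CAGAC once. The SOX4 window held GGCGC at position -23. The NANOG window held ACAATG at position -112, directly after the letters ttttgcatt, a pair known from stem cell work as the joint site for OCT4 and SOX2, and CAGAC on the reverse strand at position -143. These motifs are short and common. Of all 35116 RefSeq windows of the same length, 38% held CAGAC, 44.5% GGCGC and 9.29% ACAATG, against 6, 7 and 1 of the 13 windows of the markers. The octamer ATTTGCAT, read by POU factors, and the TATA motif TATAAA were in 1.63% and 10.7% of all windows and in 0 of the 13. A match of letters does not show that a factor binds there.

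The surface proteins included the most abundant markers. ANPEP encodes aminopeptidase N, a membrane enzyme that trims peptides outside the cell and is used as a marker of slowly cycling HCC cells. It was listed at 419.0 TPM in the control library and 372.8 TPM in the GDF1 library, a TPM ratio of 0.89 and a log2 change of -0.17. In order of abundance this placed ANPEP at rank 323 among the 14138 genes with at least 1 TPM in the control library and at rank 380 among 13658 in the GDF1 library. In GRCh37 (hg19), the build of the files, ANPEP (ENSG00000166825) spans 90328126 to 90358633 of chromosome 15 on the minus strand.

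CD24 encodes a small glycoprotein attached to the membrane by a lipid anchor and serves as a marker of HCC cells that start tumours. It was listed at 130.9 and 128.0 TPM, a TPM ratio of 0.98 and a log2 change of -0.03, the smallest of the 6. The level was thus nearly the same in both libraries, at rank 1052 and rank 1033. CD24 (ENSG00000272398) has no position in the GRCh37 annotation used here, and its 3 RefSeq promoter windows had no exact match on chromosome 6 of that assembly, so where its reads were aligned is not known. The 3 listed copies of CD24 added up to 1.29 and 1.31 TPM. Together ANPEP and CD24 held 96.6% of the summed TPM of the 10 markers in the control library and 95.6% in the GDF1 library.

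PROM1 and CD44 were low in both libraries and differed in opposite directions. PROM1 encodes prominin 1, a glycoprotein of membrane protrusions and a widely used stem cell marker. It was listed at 3.8 TPM in the control library and 7.03 TPM in the GDF1 library, a TPM ratio of 1.85 and a log2 change of 0.74. Of the 14929 genes reaching 1 TPM, 91.7% had a lower log2 change. PROM1 (ENSG00000007062) spans 15964699 to 16086001 of chromosome 4 on the minus strand, the promoter window printed above lies within it, and the gene FGFBP2 inside its span was listed at 0.57 and 0.44 TPM.

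CD44 encodes the main cell surface receptor for hyaluronan. It was listed at 4.51 TPM in the control library and 3.09 TPM in the GDF1 library, a TPM ratio of 0.68 and a log2 change of -0.43, with 34.8% of the genes reaching 1 TPM below it. CD44 (ENSG00000026508) spans 35160429 to 35253949 of chromosome 11 on the plus strand. Its transcripts differ in the exons they include, and gene-level TPM does not separate the standard from the variant forms.

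With these differences the order of the low markers changed. In the control library, SOX4 came after ANPEP and CD24, followed by CD44, SOX9 and PROM1, with CD44 and SOX9 nearly equal at 4.51 and 4.50 TPM. In the GDF1 library, SOX4 came at the same place, followed by PROM1, SOX9 and CD44. The TPM of PROM1 divided by that of CD44 was 0.84 in the control library and 2.28 in the GDF1 library, 2.71 times higher. This pair was not planned, and it sets the largest rise among the markers reaching 1 TPM against the largest fall. CD24 exceeded CD44 29.0-fold in the control library and 41.5-fold in the GDF1 library. Such ratios within a library do not depend on how the libraries are scaled to each other. Without a second library per condition, it cannot be said which neighbours in these orders differ beyond their spread.

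EPCAM encodes an adhesion protein of epithelial and progenitor cells. The study measured it by qPCR in PLC-8024 cells among progenitor markers that also included SOX9 and KRT19. It reported that GDF1 overexpression raised the progenitor markers. For protein, the study also reported dedifferentiation by western blot in PLC-8024 and Huh7, another HCC line, and by staining of xenograft tumours. How those assays relate to the TPM given here was not tested. In the RNA-seq, EPCAM was listed at 0.17 TPM in the control library and at 0 in the GDF1 library. No ratio is given against a value listed at 0. EPCAM (ENSG00000119888) spans 47572297 to 47614740 of chromosome 2 on the plus strand, and no gene overlapping it was listed above 0.

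Among the SOX factors, SOX4 and SOX9 were low but present in both libraries and SOX2 was listed at 0. SOX4, a factor of progenitor and tumour cells, was listed at 6.28 TPM in the control library and 7.54 TPM in the GDF1 library, a TPM ratio of 1.20 and a log2 change of 0.23. SOX9, a factor of ductal and progenitor cells, was listed at 4.50 and 5.29 TPM, a TPM ratio of 1.17 and a log2 change of 0.19. The values of both genes were higher in the GDF1 library, by about the same factor, and SOX4 over SOX9 was 1.40 and 1.43 in the 2 libraries. Of all genes reaching 1 TPM, 75.3% had a log2 change below that of SOX4 and 73.5% below that of SOX9. Both genes are on plus strands, SOX4 (ENSG00000124766) at 21593982 to 21598850 of chromosome 6 and SOX9 (ENSG00000125398) at 70117161 to 70122557 of chromosome 17.

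The pluripotency factors were at or near 0. SOX2 (ENSG00000181449, plus strand of chromosome 3, 181429713 to 181432224) was listed at 0 in both libraries, as was SOX2-OT, the long noncoding RNA that spans it on the same strand. NANOG (ENSG00000111704, plus strand of chromosome 12, 7940390 to 7951742), a homeobox factor, was also listed at 0 in both. Of the 10 NANOG pseudogenes in the tables, 3 were above 0 in the control library and 1 in the GDF1 library, adding up to 0.31 and 0.05 TPM. POU5F1 (ENSG00000204531, minus strand of chromosome 6, 31132114 to 31148508), the POU factor also called OCT4, was listed at 0.32 TPM in the control library and 0.15 TPM in the GDF1 library, a TPM ratio of 0.48 between values that are both under 1 TPM. Reads of POU5F1 could be shared with its neighbours and copies. TCF19, a protein-coding gene that overlaps POU5F1 on the opposite strand, fell from 11.2 to 1.89 TPM (log2 change -2.08). PSORS1C3, a noncoding gene that overlaps POU5F1 on its own strand, was listed at 0.50 and 0.41 TPM. Whether the counting used strand is not given in the sources used here. It is therefore not known to which gene reads from the stretch shared by POU5F1 and TCF19 were given. The 7 listed copies of POU5F1 added up to 0.08 and 0.07 TPM.

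**Figure D2:**
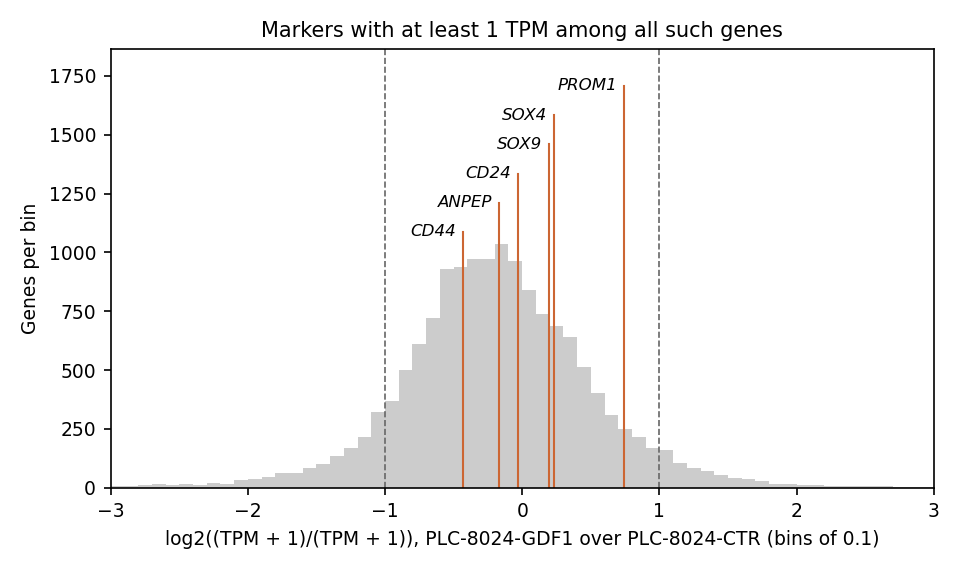
Number of genes per bin of log2 change (grey bars, genes reaching 1 TPM in either library, those beyond the axis not drawn) with the 6 markers that reached 1 TPM as orange lines, whose heights serve only to place the names. All 6 lie between the dashed lines at 2-fold, from -0.43 for CD44 to 0.74 for PROM1, and the bars centre to the left of 0, at a median of -0.20.

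The 17 other markers used to define liver cancer stem cells gave a mixed picture. At least 1 TPM was reached by 9 of them, of which 2 rose and 2 fell past 2-fold, and 6 were listed at 0 in both libraries, among them KIT and DLK1. CD47, the surface signal that keeps macrophages from engulfing a cell, rose from 4.78 to 12.8 TPM (TPM ratio 2.67, log2 change 1.25). KRT19, a keratin of bile ducts and progenitors, rose from 4.46 to 10.9 TPM (TPM ratio 2.45, log2 change 1.13). ABCG2, the efflux pump behind the side population of stem-like cells, fell from 8.95 to 3.86 TPM (TPM ratio 0.43, log2 change -1.04). With rescaled libraries ABCG2 did not pass 2-fold (-0.87), nor with the GC trend removed (-0.61). CACNA2D1, a calcium channel subunit, fell from 1.09 to 0.03 TPM (log2 change -1.02, or -0.58 with the GC trend removed). The added 1 shrinks both of these values for CACNA2D1, whose plain TPM ratio was 0.029. The most abundant of the 17, ALDH1A1, a retinal dehydrogenase, was listed at 292.7 and 268.0 TPM. The median log2 change of the 9 was -0.42, where that of all genes reaching 1 TPM was -0.20 and 14.4% of those genes passed 2-fold. The median of the 9 was -0.21 with rescaled libraries and -0.29 with the GC trend removed.

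Most genes of the wider pluripotency network were under 1 TPM. Of 25 genes, 10 were listed at 0 in both libraries, including ZFP42, DPPA4, NODAL and GDF3, and 9 reached 1 TPM. None of the 9 changed past 2-fold, and 7 had a log2 change below 0, with a median of -0.26, where 14.4% of all genes reaching 1 TPM changed past 2-fold and their median was -0.20. Rescaling left 5 of the 9 below 0 and a median of -0.09, and removal of the GC trend left 5 below 0 and a median of -0.02. KLF5, a Krüppel-like factor of epithelia, was the most abundant, at 24.3 and 17.2 TPM. The RNA-binding protein LIN28B, which blocks let-7 microRNAs in foetal liver and HCC, was listed at 8.74 and 6.24 TPM and SALL4, an oncofetal zinc finger factor, at 2.55 and 1.62 TPM. With the GC trend removed, the log2 change of LIN28B went from -0.43 to 0.01, and that of SALL4 was -0.27. Among the 9 genes reaching 1 TPM, the 2 with a log2 change above 0 were KLF4, at 7.53 and 9.33 TPM, and MYC, at 3.76 and 3.94 TPM. Genes of the network under 1 TPM lay on both sides of 0 and are not counted here.

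Of 19 genes of the SOX family, 5 reached 1 TPM, and none changed past 2-fold, where 14.4% of all genes reaching 1 TPM did. SOX12 was the most abundant, at 13.9 and 13.2 TPM. SOX13 was listed at 11.8 and 5.88 TPM (log2 change -0.89) and SOX18 at 8.30 and 11 TPM (log2 change 0.37). The plain TPM ratio of SOX13 was 0.50, at the edge of 2-fold. SOX4 and SOX9 therefore stood below SOX12, SOX13 and SOX18 in the control library. In the GDF1 library SOX4, at 7.54 TPM, stood above SOX13 and below SOX12 and SOX18. In both libraries, 8 SOX genes, SOX2 among them, were at 0.

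Genes that work with CD44, EPCAM and ANPEP were examined next. Over all genes reaching 1 TPM, 4.82% rose and 9.61% fell past 2-fold. Among 12 genes of hyaluronan turnover, CD44 anchoring and CD44 splicing, 7 reached 1 TPM, of which 0 rose and 2 fell past 2-fold. ESRP2, a splicing regulator that favours epithelial and CD44 variant forms, fell from 12.7 to 1.98 TPM (TPM ratio 0.16, log2 change -2.20), while its paralog ESRP1 was listed at 0 and at 0.21 TPM. HMMR, a second hyaluronan receptor that is also active in mitosis, fell from 5.44 to 1.87 TPM (TPM ratio 0.34, log2 change -1.16, or -0.73 with the GC trend removed). EZR, which links CD44 to actin, was the most abundant at 91.9 and 83.1 TPM. The hyaluronan synthases HAS1 and HAS2 were listed at 0 in both libraries.

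Among 10 genes that bind, cleave or relay signals from EPCAM, 8 reached 1 TPM, of which 2 rose and 1 fell past 2-fold. CLDN7, a tight junction claudin that binds EPCAM, rose from 18.6 to 64.0 TPM (TPM ratio 3.44, log2 change 1.73), and TSPAN8, a tetraspanin found with both, rose from 42.2 to 89.4 TPM (TPM ratio 2.12, log2 change 1.06). CTNNB1, the β-catenin that joins the cleaved tail of EPCAM in the nucleus, fell from 47.7 to 13.3 TPM (TPM ratio 0.28, log2 change -1.77). EPCAM itself was at or near 0 in the same libraries. Of the 12 aminopeptidases of the ANPEP family, 9 reached 1 TPM, 0 rose and 2 fell past 2-fold. These were RNPEPL1, from 28.9 to 11.1 TPM (TPM ratio 0.38, log2 change -1.31), and AOPEP, from 8.79 to 3.16 TPM (TPM ratio 0.36, log2 change -1.23, or -0.90 with the GC trend removed). ANPEP was the most abundant of the family.

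**Figure D3:**
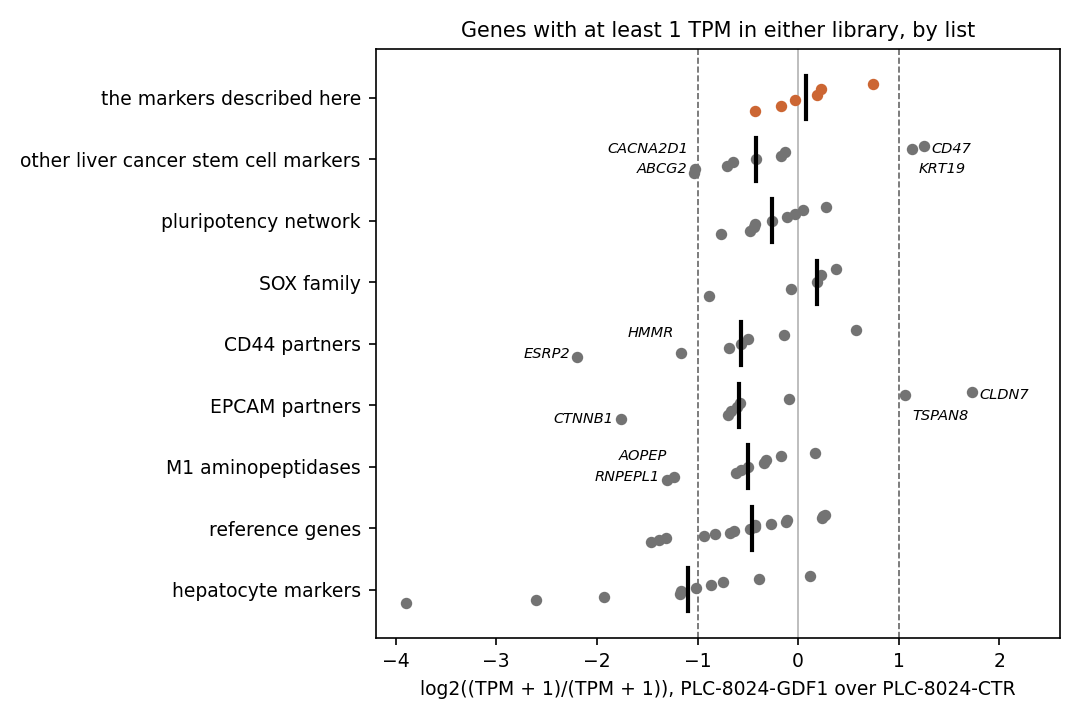
Log2 change of each gene reaching 1 TPM in either library (points) for the 6 markers (orange) and for 8 further lists (grey), with the median of each list as a black bar and dashed lines at 2-fold; SOX4 and SOX9 appear in 2 rows and ANPEP in 2. The 6 markers stay within the lines, while the hepatocyte markers reach -3.90 and CLDN7 reaches 1.73.

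The cell line was checked against markers of liver and of other cell types. All 10 hepatocyte markers reached 1 TPM in either library, with SERPINA1 at 5308 and 2915 TPM and ALB, the albumin gene, at 15 and 6.07 TPM. Past 2-fold, 0 of the 10 rose and 6 fell, led by AHSG, from 399.1 to 25.8 TPM. Of all genes reaching 1 TPM, 4.82% rose and 9.61% fell past 2-fold. With the libraries rescaled to each other, 3 of the 10 hepatocyte markers fell past 2-fold, and with the GC trend removed 4 did. Fibroblast markers added up to 3.8 and 2.61 TPM, with COL1A2, PDGFRA and DCN at 0 in both libraries. Of the endothelial markers, KDR, VWF and TEK were at 0 and PECAM1 was listed at 23.2 and 22.2 TPM. Of the leukocyte markers, PTPRC was at 0, and LYZ and CD68 were listed at 298.0 and 213.5 TPM and at 33.1 and 13.2 TPM. The part of these genes in the levels of the stem cell markers was not tested.

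The 16 reference genes, which are often used to scale qPCR, show how much genes chosen for steady expression differed between the 2 libraries. Their median log2 change was -0.46, 13 of 16 lay below 0, and TFRC, PGK1 and ACTB fell past 2-fold (-1.46, -1.38 and -1.31). Their range, from -1.46 to 0.26, spans the log2 changes of 5 of the 6 markers, all but PROM1. GAPDH was the most abundant, at 7948 and 4977 TPM.

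The direction of the smallest differences depended on how the libraries were scaled. Genes with at least 5 TPM had a median log2 TPM ratio of -0.21. With the GDF1 library multiplied by 1.15 to bring that median to 0, ANPEP moved from -0.17 to 0.038 and CD24 from -0.03 to 0.17, while PROM1, SOX4 and SOX9 stayed above 0 and CD44 below (-0.27). The log2 change also followed the GC content of the longest transcript across genes, and this trend stood at -0.34 at the 43.2% GC of PROM1 and at -0.03 at the 58.6% GC of ANPEP. With the trend removed the change of PROM1 was 1.09, past 2-fold, and that of CD44 was -0.12. CD24 has no transcript in the annotation, so its GC content was not available.

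**Figure D4:**
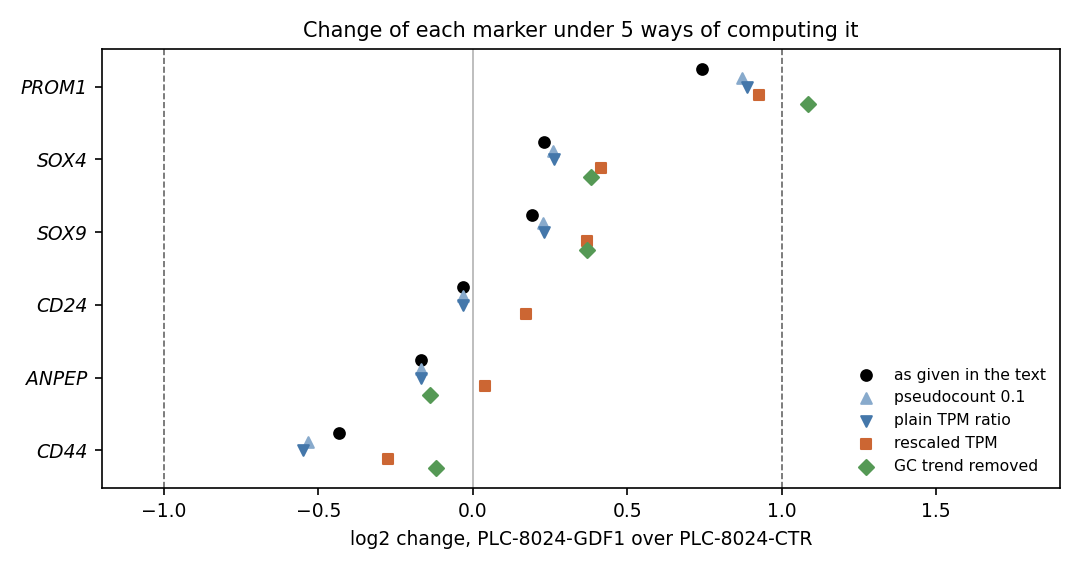
Log2 change of the 6 markers with at least 1 TPM, computed in 5 ways (symbols), with dashed lines at 2-fold and a grey line at 0. PROM1 passes 2-fold only when the GC trend is removed (1.09), ANPEP and CD24 cross 0 when the libraries are rescaled, and CD44 stays below 0 in each of the 5.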

How the data were processed

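Poly-A RNA of control and GDF1-overexpressing PLC-8024 cells was sequenced as read pairs, 1 library each. Per the methods and the submitters' processing notes, the authors filtered reads with Trimmomatic 0.36, aligned them to hg19 with HISAT2 2.1.0 and quantified genes with StringTie 1.3.3b. For samples without replicates, the methods describe calls of differential expression by DEGseq on standardised read counts, with cuts on q-value and fold change. Those calls were not used here. The methods name a RefSeq annotation, whereas the files carry Ensembl identifiers. The deposited values are TPM per gene under a header that calls them means, though the labels give 1 library for each. TPM retains no sequencing depth, so no counting error is given.

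Log2 changes used a pseudocount of 1 and genes reaching 1 TPM in either library. No test was run here, because 1 library per condition gives no spread between replicates and the values used are TPM, not counts. Positions, transcripts and GC content came from GENCODE v44 on GRCh37, which held 55726 of the 58174 identifiers, and promoter windows from RefSeq. A lowess curve (span 0.3) gave the GC trend, which covered 14640 of 14929 genes and 9 of 10 markers. Python 3.11.15, numpy 2.4.6, pandas 2.3.3, statsmodels 0.14.6 and matplotlib 3.10.9 were used. The code for the fold calls was run on simulated data, with planted changes well past 2-fold and noise set by hand. That run checks the code only and does not measure the error of the calls.

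The markers and lists were chosen with earlier results of these data known. The rule named the 10 markers, the most abundant gene of each list, at most 4 rises and 4 falls past 2-fold per list, and copies or overlapping genes. Other genes, such as those at 0, LIN28B, SALL4, KLF4, MYC, SOX13, SOX18, ESRP1 and the cell type markers named singly, were chosen after their values were seen. Alternatives were a pseudocount of 0.1, the plain TPM ratio, a minimum of 5 TPM or none, rescaled TPM, removal of the GC trend and TPM of copies added.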

Additional observations from a re-analysis of the deposited data

How the results depend on the processing

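No paired analysis was possible because only 1 library was made per condition. The number of markers past 2-fold was 0 of 6, and it was also 0 with a pseudocount of 0.1, the plain TPM ratio, a minimum of 5 TPM, no filter, rescaled TPM and added copies. It was 1 (PROM1) with the GC trend removed and 1 (POU5F1, log2 TPM ratio -1.07) with the plain ratio and no filter, an alternative chosen after seeing the data. Dropping the filter could not add a call at a pseudocount of 1, and a minimum of 5 TPM could only remove one. The median log2 change of the markers, 0.08 as reported, became -0.016 with no filter, where the 4 markers under 1 TPM enter, and -0.033 with the plain ratio and no filter. It was 0.27 with rescaled TPM, 0.37 with the GC trend removed (5 markers) and 0.19 at a minimum of 5 TPM (5 markers). With rescaled TPM, ANPEP became 0.038 and CD24 0.17, since every gene in the GDF1 library was raised by the same factor. Of 46 values of single markers, 43 kept their direction and their side of 2-fold. Many of the 46 could not move, so this count is not a measure of robustness. A minimum of 5 TPM and no filter leave the value of a marker as it was. Added copies changed only CD24 among these markers, and the plain ratio with no filter repeats the plain ratio. Over all genes, rises and falls past 2-fold were 720 and 1434 as reported, 1167 and 2315 at pseudocount 0.1, 1167 and 2380 for plain ratios, and 2522 and 3998 with the plain ratio and no filter. With unknown depth, the precision of the markers under 1 TPM cannot be given.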
